A study of Homo sapiens with 12 samples.

Results

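A704 is an established human kidney cancer line, and its transcript levels are described here against those of HK2 and CAKI-1, the other lines of the series. The A704 libraries were taken by their line label and are 4 of the 12 libraries. HK2, labelled normal, is a kidney line immortalised with papillomavirus oncogenes, and CAKI-1, labelled cancer like A704, came from a metastasis of a clear cell renal carcinoma. All 3 lines are labelled epithelial, and each was transfected at 25 nM, with a lipid reagent, with 4 siRNAs: a non-target control, one against LATS, and the PTPN14 reagents PTPN14-1 and PTPN14-2. RNA was taken after 48 h, and each reagent gave 1 library per line, so that A704, HK2 and CAKI-1 each hold 4 libraries that match by siRNA. The siRNAs address the Hippo pathway, in which LATS kinases restrain the coactivators YAP1 and WWTR1, and PTPN14, a tyrosine phosphatase, binds YAP1. The labels name no separate question for the comparison between lines. A704 was grown in RPMI, HK2 in keratinocyte medium and CAKI-1 in McCoy medium, so line and medium cannot be told apart in any comparison. Each line is 1 line, no untransfected library was analysed here, and the labels do not say that libraries came from separate cultures, so every p-value measures only the spread between libraries of these lines.

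VHL is the substrate receptor of a ubiquitin ligase that removes the alpha subunits of hypoxia-inducible factor, HIF1A and EPAS1, when oxygen is present. Without it these subunits persist and drive genes for glucose uptake, glycolysis, pH control and vessel growth, and loss of VHL with the short arm of chromosome 3 is the founding event of most clear cell renal carcinomas. Interferons act through a transcription factor complex with STAT2 and IRF9, which binds an interferon-stimulated response element, or ISRE, in the promoters of antiviral genes. Proximal tubule cells, from which clear cell carcinomas are thought to arise, carry brush border enzymes and solute transporters and make the creatine precursor through GATM.

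Promoter sequences are shown for members of the hypoxia and interferon groups that were higher in A704 against both lines, 2 hypoxia genes with the core letters of the hypoxia response element and 2 interferon genes with the ISRE. Each is the 250 bases before the first start that RefSeq lists on GRCh38.p14, written from 5′ to 3′ on the gene's strand, with the letters matching either motif in capitals. The hypoxia core searched was ACGTG and the ISRE was GAAA, any 2 bases and GAAA again, each on both strands, and none of these matches overlap.
CA9, carbonic anhydrase of hypoxic tumours (chr9:35673678-35673927, plus strand): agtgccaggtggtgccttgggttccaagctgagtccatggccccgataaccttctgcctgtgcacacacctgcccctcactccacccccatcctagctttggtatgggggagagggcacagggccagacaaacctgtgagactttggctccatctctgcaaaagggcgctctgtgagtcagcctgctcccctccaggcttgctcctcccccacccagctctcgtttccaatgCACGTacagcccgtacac
ENO2, a glycolytic enolase (chr12:6914330-6914579, plus strand): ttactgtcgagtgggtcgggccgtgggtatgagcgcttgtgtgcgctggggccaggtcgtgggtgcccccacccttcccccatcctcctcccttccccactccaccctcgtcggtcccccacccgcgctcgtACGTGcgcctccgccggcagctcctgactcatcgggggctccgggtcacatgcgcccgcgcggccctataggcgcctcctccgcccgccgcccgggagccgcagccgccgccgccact
IFI6, an interferon-induced mitochondrial protein (chr1:27672193-27672442, minus strand): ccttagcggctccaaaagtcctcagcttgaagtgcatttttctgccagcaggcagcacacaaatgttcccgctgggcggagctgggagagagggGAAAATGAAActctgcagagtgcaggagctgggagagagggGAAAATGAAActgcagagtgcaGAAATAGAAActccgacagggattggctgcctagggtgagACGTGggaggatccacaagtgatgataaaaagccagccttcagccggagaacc
IFIT1, an interferon-induced RNA-binding protein (chr10:89392373-89392622, plus strand): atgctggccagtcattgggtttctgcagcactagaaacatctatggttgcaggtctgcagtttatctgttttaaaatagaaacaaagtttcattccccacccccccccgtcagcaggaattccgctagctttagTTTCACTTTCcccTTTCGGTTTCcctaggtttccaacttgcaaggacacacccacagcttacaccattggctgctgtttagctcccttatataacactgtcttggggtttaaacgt
The core in CA9 begins 18 bases before the start, in reverse orientation, and that in ENO2 118 bases before it. IFI6 holds 3 ISRE matches, which begin 156, 115 and 93 bases before the start, and also 1 match of the hypoxia core, at 53 bases. IFIT1 holds 2 ISRE matches, at 116 and 103 bases.

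The values are FPKM, a unit that scales fragment counts for transcript length and library size. The authors' scaling is not given in the sources used here, so comparing libraries on this unit is an assumption, and the FPKM of a library summed to between 344334 and 396360. Effective depth, estimated from the steps between low values of single-exon genes, was 18.5 to 21.2 M reads in A704 and 17.0 to 23.3 M over all libraries, and 10862 to 11082 entries per library lay above FPKM 1. Mitochondrial transcripts held 12.3 to 17.0% of all FPKM in A704, against 11.6 to 13.1% in HK2 and 17.8 to 18.6% in CAKI-1. RNA integrity was 9.6 in the A704 control library and 10 in the rest, per the labels. The leading principal components (57 and 38.1% of the variance) placed every A704 library with A704 and none with another line. Within a line the median SD of a gene was 0.124 in A704, against 0.125 in HK2 and 0.143 in CAKI-1 on the log2(FPKM + 1) scale.

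A704 differed from both lines in a large part of the transcriptome. Differences are of log2(FPKM + 1), A704 minus the other line, matched by siRNA, with the standard error from limma, and they understate the change of low genes. A gene is called where the Benjamini-Hochberg adjusted p from limma over all 12276 entries tested was under 0.05 and the difference was at least 1 either way. Against HK2, 4002 genes were called (32.6% of those tested), 2023 higher in A704 (16.5%) and 1979 lower (16.1%). Against CAKI-1, 3019 were called (24.6%), 1515 higher (12.3%) and 1504 lower (12.3%). Both comparisons use the same A704 libraries. In the same direction against both lines, 934 genes were higher in A704 (7.61%) and 666 lower (5.43%), which makes 1600 (13%). Another 101 genes were called in opposite directions, 56 of them higher than in HK2 and lower than in CAKI-1.

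The size of the difference, not its p, set these counts, since every gene past a difference of 1 also passed the adjusted p. On the adjusted p alone, 10382 genes (84.6%) would be called against HK2 and 9954 (81.1%) against CAKI-1. The 4 A704 libraries lay above all 8 others in 2536 genes (20.7%) and below them in 2742 (22.3%). This held for 933 of the 934 genes higher against both lines and for 662 of the 666 lower. With the 4 siRNAs taken 1 by 1, 659 of the higher and 471 of the lower genes stood past a difference of 1 from both lines in every siRNA pair. Against both lines, 255 genes were higher and 153 lower by at least 2, 40 and 23 by at least 4, and 2 and 7 by at least 6. Genes near the threshold include TXNIP, with differences of 1.28 and 1.00, just inside, and PTPN6, with 0.999 and 1.40, just outside.

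**Figure D1:**
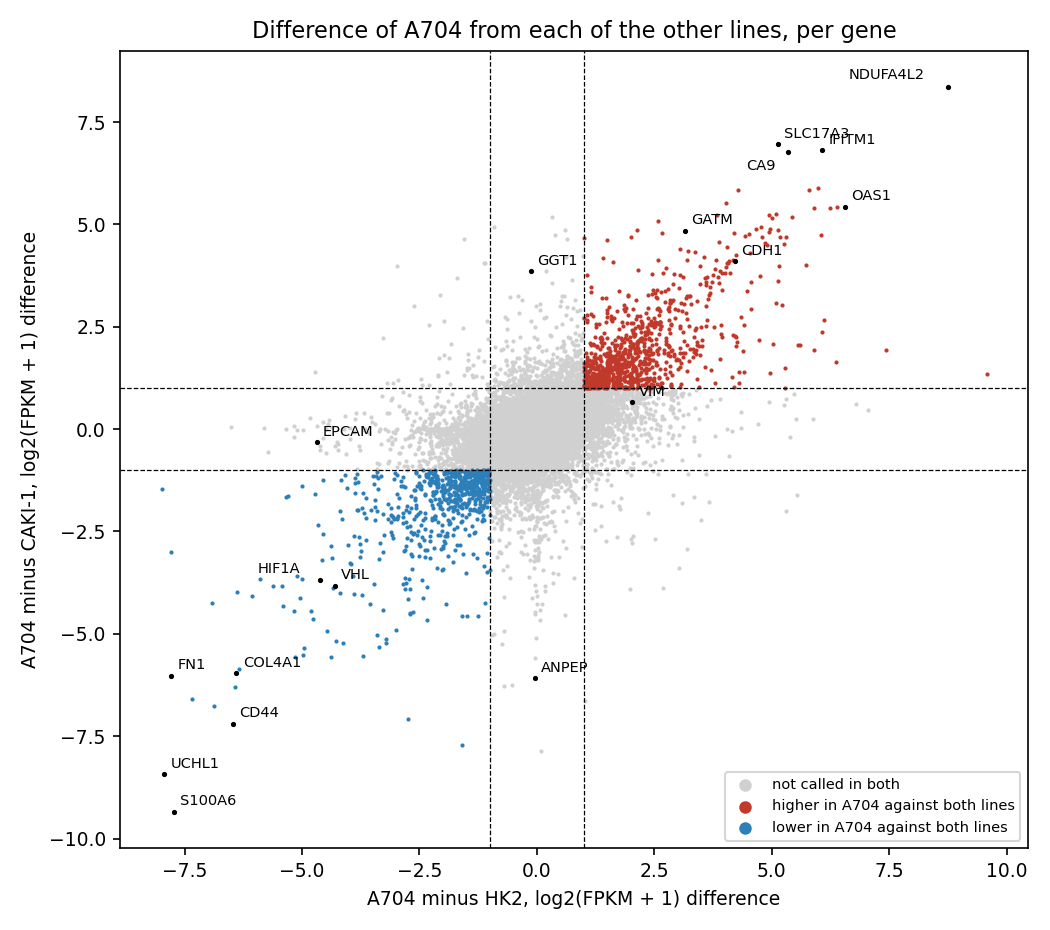
Each point is a tested gene, placed by its difference of A704 from HK2 (horizontal) and from CAKI-1 (vertical), both in log2(FPKM + 1); genes of the Y chromosome are not drawn. Red and blue mark genes called higher or lower in A704 against both lines, dashed lines stand at -1 and 1, and named genes run from S100A6 and UCHL1 at the lower left to NDUFA4L2 at 8.76 and 8.36.

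The labelled epithelial kidney identity was checked with GATM, CDH1 and GGT1. In this and all later lists of 4 values the order is control, LATS, PTPN14-1 and PTPN14-2 siRNA. GATM, the amidinotransferase of creatine synthesis (chromosome 15, 45361124 to 45402327, minus strand, GRCh38), had 35.1, 36.02, 28.5 and 29.5 FPKM in A704, against 3.34, 3.37, 3.0 and 1.51 in HK2 and 0.12, 0.22, 0.13 and 0.12 in CAKI-1. Its difference was 3.16 ± 0.12 from HK2 (adjusted p 1.7e-11) and 4.85 ± 0.12 from CAKI-1 (adjusted p 3.4e-13), with no overlap between A704 and the other libraries. CDH1, E-cadherin of epithelial adherens junctions, had 17.8, 18.6, 16.04 and 21.4 FPKM in A704, against at most 0.07 in HK2 and at most 0.17 in CAKI-1. It was higher by 4.21 ± 0.08 and 4.10 ± 0.08 (adjusted p 3.6e-14 and 5.3e-14). GGT1, a brush border gamma-glutamyltransferase, had 29.2, 34.4, 27.2 and 28.4 FPKM in A704, against 32.7, 38.7, 30.97 and 29.2 in HK2 and 0.97, 1.87, 0.85 and 0.87 in CAKI-1. A704 overlapped HK2 in GGT1, with a difference of -0.13 ± 0.07 (adjusted p 0.101), and was above CAKI-1 by 3.87 ± 0.07 (adjusted p 4.7e-14). In such bulk libraries, fewer cells with a transcript and less of it per cell cannot be told apart.

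Other epithelial and tubule markers gave a mixed picture. Of 53 proximal tubule genes in the table, 22 averaged above FPKM 1 in A704, against 14 in HK2 and 11 in CAKI-1. The defining endocytic receptor LRP2 (megalin) was at 1.01, 0.98, 0.66 and 1.83 FPKM in A704 and listed at 0 in all 8 other libraries. The water channel AQP1 and the phosphate transporter SLC34A1 stayed at or below 0.49 FPKM in every library, and the hepatocyte and proximal tubule factor HNF4A at or below 0.01. The epithelial adhesion molecule EPCAM was at 0.03 to 0.25 FPKM in A704, against 24.7 to 32.96 in HK2 and 0.31 to 0.51 in CAKI-1. ANPEP, a brush border aminopeptidase, was at 0.01 to 0.13 FPKM in A704 and 0.04 to 0.13 in HK2, against 48.03 to 111 in CAKI-1. A704 thus held GATM, CDH1 and GGT1 but lacked or nearly lacked several other defining markers. UMOD of the thick limb, AQP2 of the collecting duct, NPHS1 of podocytes, PTPRC of leukocytes and CDH5 of endothelium were each at or below 0.04 FPKM in all 12 libraries.

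VHL was nearly absent from A704. It stood at 0.14, 0.04, 0.07 and 0.07 FPKM in A704, against 19.9, 20.2, 20.8 and 20.1 in HK2 and 14.9, 13.1, 13.9 and 15.3 in CAKI-1. The A704 libraries lay far below all 8 others, with differences of -4.30 ± 0.07 from HK2 (adjusted p 6.5e-15) and -3.82 ± 0.07 from CAKI-1 (adjusted p 2.7e-14). VHL lies on the short arm of chromosome 3 (10141008 to 10152220, plus strand, GRCh38). HIF1A, an alpha subunit that VHL targets, had 17.9, 16.5, 17.2 and 15.9 FPKM in A704, against 454, 398, 432 and 462 in HK2 and 239.9, 201, 218 and 254 in CAKI-1. It was called lower, with differences of -4.61 ± 0.07 and -3.68 ± 0.07. The other alpha subunit, EPAS1, had 28.4, 32.9, 20.8 and 25.8 FPKM in A704, against 71.8, 87.4, 43.4 and 92.3 in HK2 and 37.2, 43.8, 20.9 and 27 in CAKI-1. EPAS1 was called lower against HK2 (-1.38 ± 0.12) and overlapped CAKI-1 (-0.21 ± 0.12, adjusted p 0.118).

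Genes that respond to hypoxia stood higher in A704. Of 40 tested hypoxia and glycolysis genes, 22 were called higher against HK2 (16.5% of all genes tested), 28 against CAKI-1 (12.3%) and 21 against both (7.61%), while 1, HIF1A, was lower against both. Their median difference was 1.16 from HK2 and 1.42 from CAKI-1, beside -0.04 and -0.03 over all genes tested. NDUFA4L2, a HIF target that lowers mitochondrial complex I activity, led the 15 higher genes that the naming rule gave. It had 483, 608, 493 and 526 FPKM in A704, against 0.32, 0.29, 0.18 and 0.07 in HK2 and 0.60, 0.97, 0.51 and 0.39 in CAKI-1, with differences of 8.76 ± 0.08 and 8.36 ± 0.08 (adjusted p 2.1e-16 and 2.2e-16). NDUFA4L2 passed the filter, FPKM above 1 in at least 3 libraries, only through A704, so it could not have been called lower. CA9, which hydrates carbon dioxide at the cell surface and whose promoter is shown above, had 124, 127, 114 and 118 FPKM in A704, against 1.55, 2.81, 1.42 and 2.4 in HK2 and 0.08, 0.21, 0.10 and 0.04 in CAKI-1. Its differences were 5.35 ± 0.10 and 6.78 ± 0.10, and A704 did not overlap either line. The stress-responsive NDRG1 had 638, 742, 544 and 478 FPKM in A704, against 22.4, 31.6, 28.3 and 12.7 in HK2 and 18.8, 25.6, 24.7 and 10.8 in CAKI-1, a difference of 4.66 ± 0.12 and 4.89 ± 0.12. EGLN3, a prolyl hydroxylase that marks HIF alpha subunits for VHL and is itself hypoxia-induced, was at 51.9 to 76.05 FPKM in A704, against 2.2 to 3.47 in HK2 and 0.31 to 0.49 in CAKI-1.

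The same direction ran through several steps of the response. ADM, the vasodilator adrenomedullin, was at 38.1 to 42.96 FPKM in A704, against 3.01 to 4.6 in HK2 and 4.57 to 8.7 in CAKI-1. VEGFA, the endothelial growth factor, was at 144 to 259.8 FPKM in A704, against 73.1 to 90.9 in HK2 and 9.34 to 13.6 in CAKI-1, and its differences were 1.40 ± 0.11 and 4.18 ± 0.11. For glucose handling, SLC2A1, the GLUT1 transporter, differed by 1.61 ± 0.08 and 4.09 ± 0.08. PFKFB3, which makes the activator of phosphofructokinase, differed by 2.75 ± 0.09 and 2.24 ± 0.09, ALDOA (aldolase) by 2.16 ± 0.09 and 1.80 ± 0.09, and ENO2 by 2.47 ± 0.08 and 3.41 ± 0.08. ENO2 had 215, 222, 202 and 189 FPKM in A704, against 33.3, 45.5, 33.6 and 34.9 in HK2 and 18.9, 22.9, 18.02 and 15.1 in CAKI-1, so that the lowest A704 library was above the highest of the others. CA12, another carbonic anhydrase, was at 158 to 205 FPKM in A704, against 22.8 to 33.5 in HK2 and 2.95 to 5.99 in CAKI-1. The ACGTG core lay in the 250 bases before the start of 10 of the 17 genes of this list that were higher against both lines and had a RefSeq promoter (58.8%) and of 16 of the 36 promoters of the whole list, whatever their direction (44.4%). It lay in 18.7% of all 27195 promoters, in 23.4% of those of genes tested, and in 20.5% of the 697 of all genes higher against both lines, beside 22.9% of those of genes lower.

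**Figure D2:**
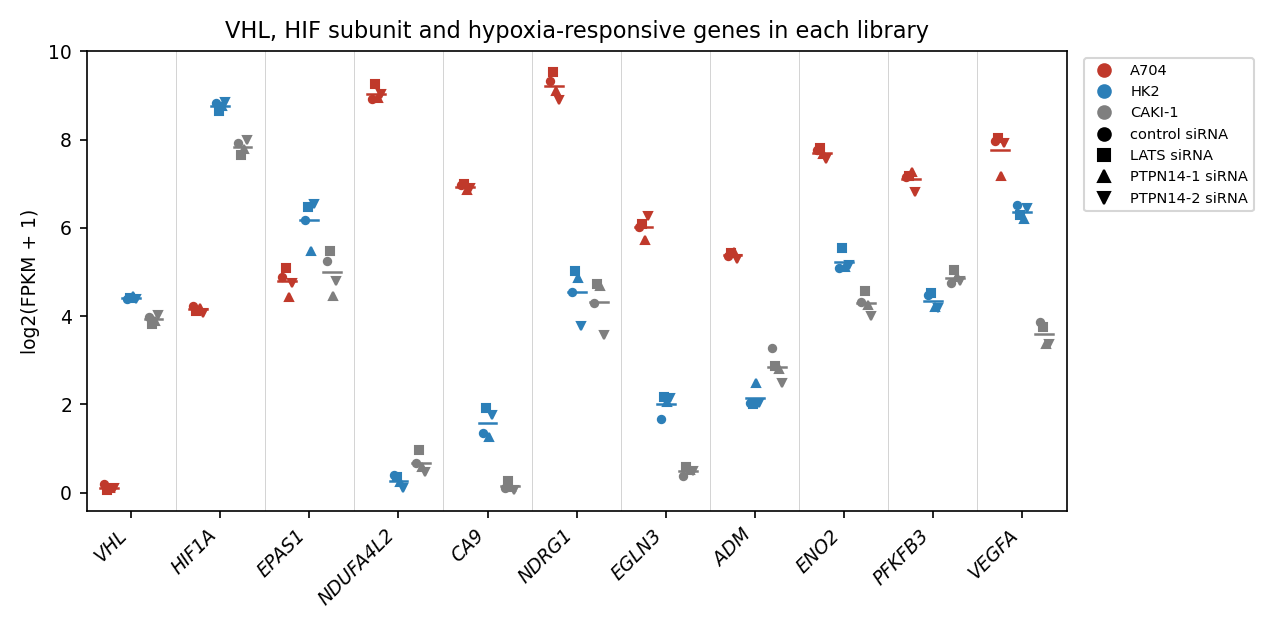
log2(FPKM + 1) of VHL, both HIF alpha subunits and 8 hypoxia-responsive genes in each library; colours mark A704 (red), HK2 (blue) and CAKI-1 (grey), symbols mark the siRNA and bars are means of 4 libraries. VHL and HIF1A lie lowest in A704, and NDUFA4L2, CA9, NDRG1, EGLN3, ADM, ENO2, PFKFB3 and VEGFA lie highest there.

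The low VHL level stood within a lower short arm of chromosome 3. The 326 tested genes of 3p had median differences of -0.78 from HK2 and -0.73 from CAKI-1, and 63 of them (19.3%) were lower against both lines, while 6 (1.84%) were higher. The long arm of chromosome 3 was lower too, with medians of -0.54 and -0.36. Of its 348 tested genes, 40 (11.5%) were lower against both lines and 23 (6.61%) higher. Of the other tumour suppressors of 3p that are often lost in clear cell carcinoma, PBRM1 and SETD2 were called lower and BAP1 was not. PBRM1, a subunit of the PBAF chromatin remodeller, had 1.07, 1.02, 1.08 and 1.06 FPKM in A704, against 13.6, 12.8, 15 and 14.4 in HK2 and 9.1, 8.62, 9.42 and 9.05 in CAKI-1, differences of -2.86 ± 0.06 and -2.29 ± 0.06. SETD2, the histone H3 lysine methyltransferase of transcribed genes, had 6.07, 6.82, 5.2 and 6.65 FPKM in A704, against 15.4, 13.8, 15.9 and 16.2 in HK2 and 14.8, 12.7, 14.4 and 15.3 in CAKI-1, differences of -1.19 ± 0.08 and -1.09 ± 0.08. BAP1, a deubiquitinase, differed by -0.57 ± 0.07 and -0.57 ± 0.07, close to the median of 3p and short of a call. VHL and PBRM1 stood well below that median. IRAK2, a kinase of interleukin receptors that lies near VHL on 3p, had 3.4, 4.26, 5.86 and 3.27 FPKM in A704, against 11.6, 12.1, 13.8 and 10.98 in HK2 and 15.99, 14.9, 14.2 and 10.5 in CAKI-1. Also on 3p, the TGF-beta receptor TGFBR2 differed by -1.28 ± 0.10 and -2.20 ± 0.10, and the ribosomal protein genes RPL14 and RPL32 by -1.40 ± 0.07 and -1.28 ± 0.07 and by -1.36 ± 0.07 and -1.35 ± 0.07.

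Other arms were shifted as a whole. The 280 tested genes of 16p had the highest medians, 1.07 from HK2 and 0.74 from CAKI-1, with 252 (90%) and 254 (90.7%) above those lines and 72 (25.7%) called higher against both. Named genes on 16p include ECI1, an enoyl-CoA isomerase of fatty acid oxidation, with differences of 2.31 ± 0.10 and 1.87 ± 0.10, and ALDOA. The long arm of chromosome 16 went the other way, at -0.36 and -0.48, and CDH1 and CDH16, both higher in A704, lie on it. Chromosome 12 stood higher, at 0.43 and 0.48, and holds NDUFA4L2, ENO2, SHMT2 and KRT18. BCAT1, SCNN1A and SYT1, all lower in A704 against both lines, lie on chromosome 12 as well. The long arm of chromosome 20 stood at -0.58 and -0.44. Chromosome 14, which holds HIF1A, stood at -0.80 from HK2 and -0.25 from CAKI-1, a shift far smaller than that of HIF1A. Arms were split at the widest gap between annotated genes, 11826 tested genes had a position and 450 did not. Copy number was not measured, and its part in these medians was not tested.

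**Figure D3:**
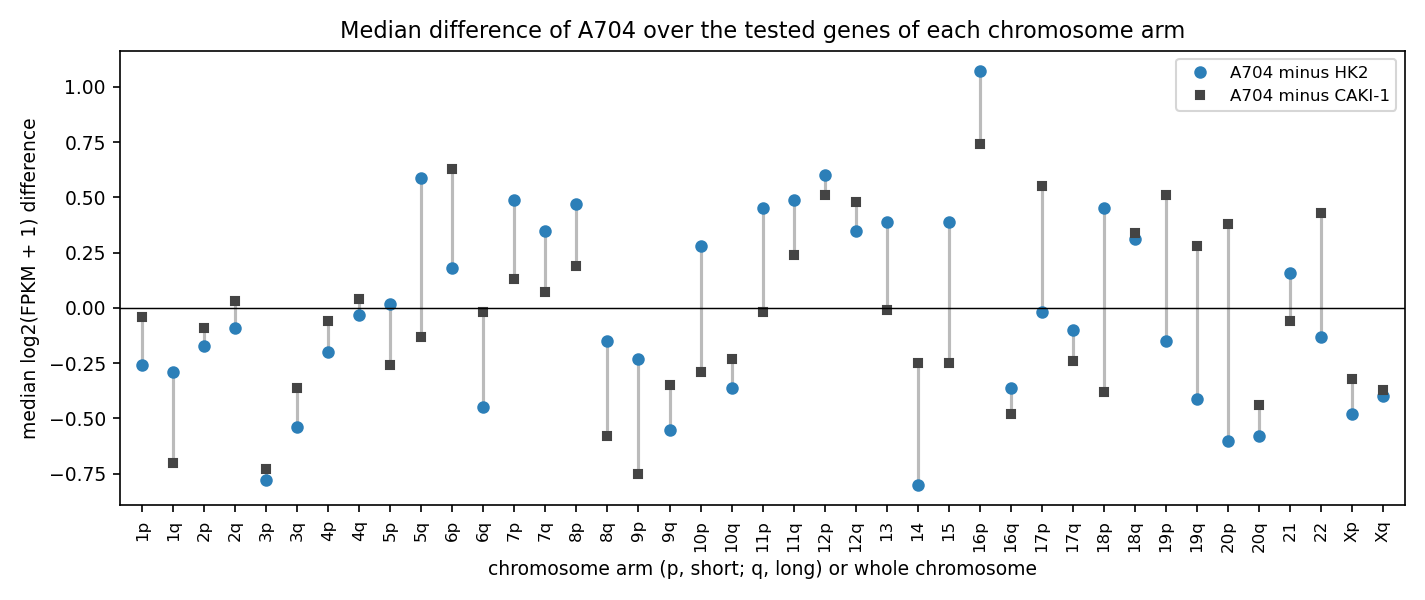
Median difference of A704 from HK2 (circles) and from CAKI-1 (squares) over the tested genes of each chromosome arm, in log2(FPKM + 1); grey lines join the medians of an arm. 16p lies highest in both comparisons, at 1.07 and 0.74, and 3p lies low in both, at -0.78 and -0.73.

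Interferon-stimulated genes were far higher in A704 than in either line. Of 42 tested, 40 were called higher against HK2 (16.5% of all genes tested), 36 against CAKI-1 (12.3%) and 36 against both (7.61%), and none was called lower. The median difference was 3.51 from HK2 and 2.61 from CAKI-1. Any member that passed the filter only through A704, such as RSAD2, could not have been called lower. The summed level of the list was 2943 to 6091 FPKM per library in A704, against 312 to 417 in HK2 and 650 to 726 in CAKI-1. IFITM1, a membrane protein that blocks virus entry, had 122, 357, 357 and 144 FPKM in A704, against 1.96, 3.83, 1.86 and 1.74 in HK2 and 1.28, 0.90, 0.78 and 0.80 in CAKI-1. It differed by 6.07 ± 0.28 (adjusted p 5.5e-09) and 6.82 ± 0.28 (adjusted p 3.2e-09). OAS1, which senses double-stranded RNA and activates RNase L, had 113, 203, 236 and 114 FPKM in A704, against 0.88, 0.75, 0.53 and 0.58 in HK2 and 2.66, 2.91, 2.5 and 2.63 in CAKI-1. RSAD2, the antiviral enzyme viperin, had 39.96, 77.98, 139.9 and 39.1 FPKM in A704, against 0 to 0.05 in HK2 and 0.02 to 0.23 in CAKI-1. Its differences were 5.98 ± 0.27 and 5.88 ± 0.27, and A704 was apart from the others in all of these genes.

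The genes whose promoters hold the ISRE letters printed above were among them. IFI6 had 73.2, 179, 217 and 91.05 FPKM in A704, against 3.99, 3.91, 2.32 and 2.77 in HK2 and 2.37, 3.32, 2.09 and 2.1 in CAKI-1, differences of 4.93 ± 0.27 and 5.22 ± 0.27. IFIT1 had 69.3, 132, 190.3 and 56.8 FPKM in A704, against 1.52, 1.58, 2.16 and 1.1 in HK2 and 2.79, 2.54, 4.45 and 2.22 in CAKI-1, differences of 5.30 ± 0.19 and 4.69 ± 0.19. In both genes, as in IFITM1, OAS1 and RSAD2, the A704 libraries with LATS and PTPN14-1 siRNA stood above those with control and PTPN14-2 siRNA. The same order held in A704 for ISG15, a ubiquitin-like modifier, with 91, 183, 331 and 80.2 FPKM, against 6.67 to 10.1 in HK2 and 3.49 to 6.96 in CAKI-1. It also held for the chemokine CXCL10, at 8.37, 19.7, 53.2 and 13.6 FPKM in A704 and at most 0.24 elsewhere. With 1 library per reagent in a line, this order within A704 has no replicate check, and the part of transfection in the level was not tested. The ISRE letters were found before the start of 19 of the 29 interferon genes higher against both lines that had a RefSeq promoter (65.5%) and of 21 of the 34 promoters of the whole list, whatever their direction (61.8%). They were in 3.07% of all promoters, 2.37% of those of genes tested, and 6.46% of those of all genes higher against both lines, beside 1.15% of those of genes lower.

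Upstream members were less uniform. IRF7, a transcription factor that is itself interferon-induced, was at 28.5 to 45.6 FPKM in A704, against 1.79 to 2.54 in HK2 and 1.32 to 2.59 in CAKI-1, differences of 3.58 ± 0.11 and 3.68 ± 0.11. IRF1 differed by 0.84 ± 0.13 and 0.53 ± 0.13, short of a call in both. The interferons themselves were low. IFNB1 was at 0.06, 0.27, 0.88 and 0.12 FPKM in A704 and at most 0.13 elsewhere, and IFNL1 was at 0, 0.33, 0.57 and 0.12 FPKM in A704 and listed at 0 in the other 8 libraries. Both were highest in the A704 library with PTPN14-1 siRNA, and neither passed the filter on low values.

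Antigen presentation genes were higher in part. Of 22 tested, 18 were called higher against HK2 (16.5% of all genes tested), 10 against CAKI-1 (12.3%) and 9 against both (7.61%), and none was lower; the medians were 2.04 and 0.88. TAP1, the peptide transporter of the class I pathway, had 78.6, 111, 165 and 79.1 FPKM in A704, against 8.35, 9.73, 8.22 and 9.52 in HK2 and 25.7, 32.4, 29.7 and 25.6 in CAKI-1, differences of 3.39 ± 0.16 and 1.84 ± 0.16. PSMB8, an immunoproteasome subunit, differed by 2.53 ± 0.15 and 1.56 ± 0.15, and CD74, the class II invariant chain, by 1.54 ± 0.12 and 1.76 ± 0.12. B2M, the light chain of class I molecules, had 1219, 1999.7, 2290.0 and 1626 FPKM in A704, against 255, 339, 339 and 317 in HK2 and 2285, 2227, 2302 and 2452 in CAKI-1. It was thus called higher than in HK2 (2.48 ± 0.12) but not than in CAKI-1 (-0.42 ± 0.12). HLA-B differed from HK2 by 2.77 ± 0.12 and from CAKI-1 by 0.86 ± 0.12, and was called against HK2 only. Most HLA symbols and B2M stand on several lines of the table, of which the highest was used, and near-identical HLA genes can share reads.

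**Figure D4:**
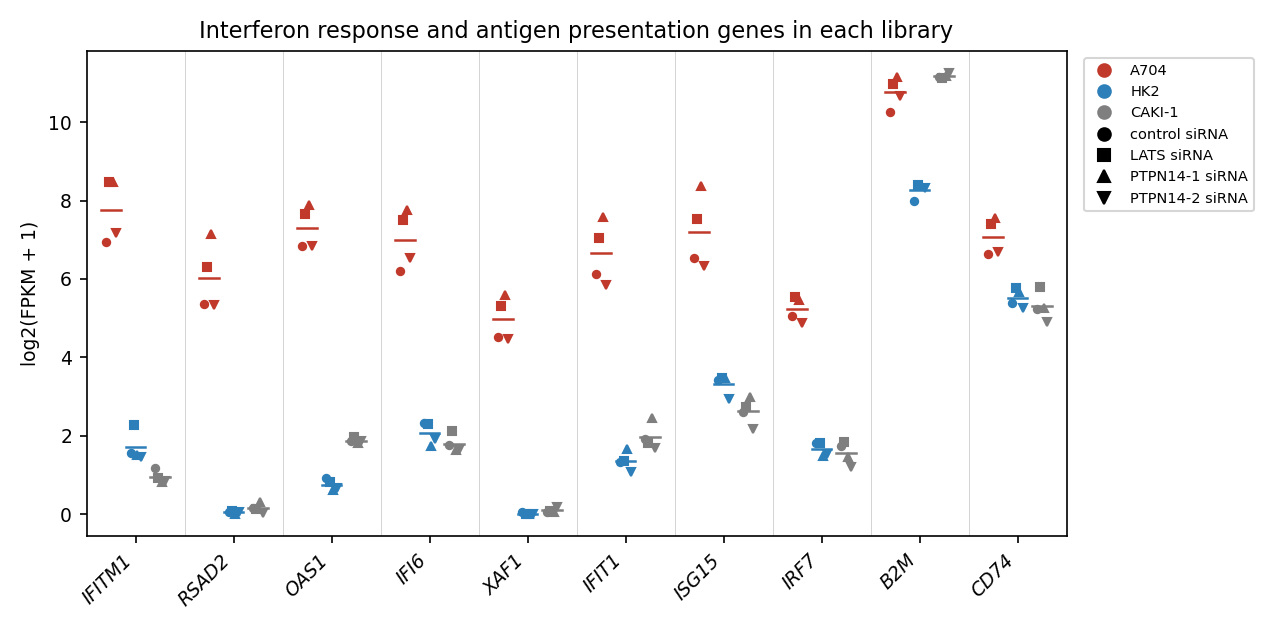
log2(FPKM + 1) of 8 interferon-stimulated genes, B2M and CD74 in each library, by line (A704 red, HK2 blue, CAKI-1 grey) and siRNA (symbols), with the mean of 4 libraries as a bar. The A704 points lie above both lines for all genes drawn except B2M, where they overlap CAKI-1.

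Of 34 tested inflammatory and NF-kB genes, 3 were higher (8.82%, beside 7.61% of all genes tested) and 4 lower (11.8%, beside 5.43%) in A704 against both lines, so that the share higher was near the background. CCL2, the monocyte chemokine, had 76.6, 77.3, 171 and 75.4 FPKM in A704, against 0.04 to 0.19 in HK2 and 0.81 to 1.52 in CAKI-1, differences of 6.38 ± 0.16 and 5.43 ± 0.16. BIRC3, an inhibitor of apoptosis and NF-kB target, was at 179 to 341 FPKM in A704, against 27.96 to 48.4 in HK2 and 31.6 to 48.1 in CAKI-1. The cytokine IL6 went the other way, at 4.29, 6.61, 15.4 and 3.79 FPKM in A704, against 38.2, 39.7, 60.4 and 31.4 in HK2 and 43.7, 24.6, 36.98 and 19.6 in CAKI-1, differences of -2.49 ± 0.23 and -2.04 ± 0.23. SAA1, an acute-phase protein whose reads can be shared with SAA2, had 1.27, 3.38, 19.7 and 1.66 FPKM in A704 and 8.67, 14.1, 15.6 and 17.9 in HK2, and its call against HK2 (-1.59 ± 0.49) was lost without the A704 control library (-1.36, adjusted p 0.0698) or the HK2 control library (-1.58, adjusted p 0.0526).

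Of the proximal tubule list, 23 genes passed the filter, and 12 of these were higher in A704 against both lines (7.61% of all genes tested) and none lower, with medians of 1.70 and 2.79. The phosphate and urate transporter SLC17A3 had 260.4, 198, 165 and 397 FPKM in A704, against 6.14, 5.56, 3.63 and 9.47 in HK2 and 0.85, 0.97, 0.96 and 0.96 in CAKI-1, differences of 5.13 ± 0.17 and 6.97 ± 0.17. Its neighbour SLC17A1 differed by 3.22 ± 0.17 and 4.36 ± 0.17. For SLC17A3 the A704 library with PTPN14-2 siRNA was highest and that with PTPN14-1 siRNA lowest. SLC3A1, the heavy subunit of the cystine transporter, was at 11.5 to 26 FPKM in A704, against 0.28 to 0.42 in HK2 and 0.06 to 0.13 in CAKI-1. The peptidase DPP4 differed by 1.70 ± 0.09 and 2.88 ± 0.09, and the albumin receptor CUBN, near the filter at 1.02 to 2.05 FPKM in A704, by 1.39 ± 0.10 and 1.23 ± 0.10. A gene that passed the filter only through A704 had to differ, so this count is a description.

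Of 27 tested factors of the kidney lineage, 7 were higher in A704 against both lines (25.9%, beside 7.61% of all genes tested) and 2 lower (7.41%, beside 5.43%). PAX2, which specifies the renal epithelium, had 10.2, 14.3, 10.5 and 9.81 FPKM in A704, against 0 in HK2 and at most 0.01 in CAKI-1. EMX2 was at 3.61 to 5.35 FPKM in A704 and at most 0.02 elsewhere. PAX2 and EMX2 passed the filter only through A704, so they could not have been called lower, and the share higher includes them. PAX8, the relative of PAX2 that marks renal tumours, was present but lower, with 21.5, 25.2, 24.2 and 19.4 FPKM in A704, against 70.6, 85.3, 72.1 and 81.8 in HK2 and 48.3, 54.5, 41.96 and 37.05 in CAKI-1. Its difference was called against HK2 (-1.74 ± 0.09) and fell just short against CAKI-1 (-0.97 ± 0.09).

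Of 33 tested glutathione transferase and detoxification genes, 9 were higher against both lines (27.3%, beside 7.61%) and 2 lower (6.06%, beside 5.43%), with medians of 0.85 and 0.33. UGT1A9, a glucuronosyltransferase whose last exons belong to all UGT1A genes, was at 28.9 to 38.5 FPKM in A704, against 0 to 0.04 in HK2 and 0.14 to 0.30 in CAKI-1. GSTM1 was at 18.6 to 22.7 FPKM in A704, against 1.32 to 1.89 in HK2 and 0 to 0.15 in CAKI-1, and the steroid and drug hydroxylase CYP3A5 differed by 3.06 ± 0.08 and 2.51 ± 0.08. UGT1A9 and CYP3A5 passed the filter only through A704, so they could not have been called lower. ABCC2, a canalicular and brush border export pump, had 77.8, 90.4, 99.6 and 82.6 FPKM in A704, against 0.19, 0.16, 0.17 and 0.13 in HK2 and 1.14, 1.23, 0.85 and 1.13 in CAKI-1, differences of 6.25 ± 0.09 and 5.40 ± 0.09. The sulfotransferase SULT1C4 was at 24.4 to 33.96 FPKM in A704 and at most 0.14 in the other lines. The retinaldehyde dehydrogenase ALDH1A3 was lower, at 0.24 to 0.29 FPKM in A704, against 30.8 to 58.03 in HK2 and 11.97 to 16.9 in CAKI-1. Of 36 tested fatty acid oxidation and peroxisome genes, 7 were higher against both lines (19.4%, beside 7.61%) and none lower (beside 5.43%). Against CAKI-1, 11 were called higher and 4 lower (12.3% each over all genes tested). Against HK2, 12 were higher (beside 16.5%) and none lower. ACADL and ACSM2A passed the filter only through A704, so they could not have been called lower. The acyl-CoA dehydrogenases ACADL and ACADS differed by 3.19 ± 0.11 and 3.20 ± 0.11 and by 2.52 ± 0.09 and 2.62 ± 0.09.

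Of 43 tested amino acid, creatine and one-carbon genes, 4 were higher against both lines (9.3%, near the 7.61% over all genes tested) and 5 lower (11.6%, beside 5.43%). SHMT2, the mitochondrial serine hydroxymethyltransferase, was at 191 to 219 FPKM in A704, against 54.9 to 70.2 in HK2 and 40.7 to 53.03 in CAKI-1. Its annotated 3′ end overlaps that of NDUFA4L2, and the authors' strand setting is not given in the sources used here. ASS1, the argininosuccinate synthase of arginine synthesis, had 0.16, 0.30, 0.14 and 0.07 FPKM in A704, against 17.2, 18.98, 10.1 and 19.8 in HK2 and 2.54, 3.32, 1.85 and 2.21 in CAKI-1, differences of -3.87 ± 0.12 and -1.56 ± 0.12. The branched-chain aminotransferase BCAT1 was at 0.70 to 0.85 FPKM in A704, against 23.1 to 29.9 in HK2 and 12.5 to 20.9 in CAKI-1. Both genes stayed below 1 FPKM in all 4 A704 libraries.

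Of 32 tested junction and polarity genes, 12 were higher against both lines (37.5%, beside 7.61% of all genes tested) and none lower, with medians of 0.85 and 1.21. CDH1 is among them and passed the filter only through A704, so it could not have been called lower. Beside CDH1, the kidney cadherin CDH16 had 64.05, 80.2, 56.4 and 68.3 FPKM in A704, against 1.04, 0.86, 0.42 and 1.54 in HK2 and 4.57, 5.74, 3.16 and 4.74 in CAKI-1, differences of 5.14 ± 0.10 and 3.63 ± 0.10. CRB3, an apical polarity protein, differed by 2.45 ± 0.12 and 3.29 ± 0.12. CLDN2, the cation-pore claudin of the proximal tubule, was at 94.5 to 109.8 FPKM in A704, against 12.1 to 20.5 in HK2 and 4.06 to 9.2 in CAKI-1. CLDN11, a claudin that is not on this list, was lower, with 0.71, 0.59, 0.59 and 0.58 FPKM in A704, against 109, 120.5, 179.5 and 125 in HK2 and 76.2, 87.5, 108 and 106 in CAKI-1. The gap junction protein GJA1, also not on it, was at 0.10 to 0.22 FPKM in A704, against 34.2 to 44.04 in HK2 and 50.5 to 57.96 in CAKI-1. Of 7 tested keratins, 1 was higher against both lines (14.3%, beside 7.61%), KRT18, by 1.66 ± 0.08 and 1.79 ± 0.08. KRT19 stood between the lines, at 52.6 to 62.7 FPKM in A704, against 165 to 184 in HK2 and 1.06 to 1.7 in CAKI-1.

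The mesenchymal list was mixed, with 4 genes higher (14.8%, beside 7.61% of all genes tested) and 8 lower (29.6%, beside 5.43%) against both lines of 27 tested. The mesenchymal filament VIM and the cadherin CDH2 were high in A704 beside CDH1. VIM (vimentin) averaged 1541 ± 36.4 FPKM in A704, against 378.5 ± 50.3 in HK2 and 978 ± 144 in CAKI-1 (SD, n = 4 each), and was called against HK2 (2.03 ± 0.08) but not against CAKI-1 (0.67 ± 0.08). CDH2 (N-cadherin) had 93.9, 111, 117 and 103 FPKM in A704, against 24.6, 28.5, 31.5 and 34.8 in HK2 and 27.5, 31, 33.9 and 35.8 in CAKI-1, and was higher against both, by 1.81 ± 0.07 and 1.70 ± 0.07. The repressor of E-cadherin ZEB1 differed by -1.23 ± 0.09 and -1.45 ± 0.09. The collagen cross-linking enzyme LOX was higher, at 80.2 to 116 FPKM in A704, against 6.1 to 8.32 in HK2 and 3.8 to 4.41 in CAKI-1.

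Matrix genes gave the most lower members of any list described here. Of 42 tested basement membrane and matrix genes, 13 were lower against both lines (31.0%, beside 5.43% of all genes tested) and 4 higher (9.52%, near the 7.61% over all genes). The medians were -0.89 and -1.00. The summed level of the list was 966 to 1163 FPKM per library in A704, against 5337 to 6624 in HK2 and 3200 to 4008 in CAKI-1. FN1 (fibronectin) had 13.5, 13.2, 16.2 and 12 FPKM in A704, against 3244, 3006, 3709 and 3048 in HK2 and 1162, 1020.2, 838 and 809.7 in CAKI-1, differences of -7.79 ± 0.10 (adjusted p 2.6e-15) and -6.02 ± 0.10 (adjusted p 2.5e-14). COL4A1, a chain of the common collagen IV of basement membranes, had 0.20, 0.12, 0.20 and 0.16 FPKM in A704, against 62.6, 96.3, 130.1 and 116 in HK2 and 52.4, 81.8, 78.8 and 77.2 in CAKI-1. COL4A2, its partner chain and head-to-head neighbour, differed by -6.43 ± 0.09 and -6.30 ± 0.09. The chains of the glomerular and tubular collagen IV went the other way. COL4A3 had 3.92, 4.78, 2.95 and 4.3 FPKM in A704, against 0.12, 0.16, 0.22 and 0.27 in HK2 and 0.13, 0.15, 0.20 and 0.18 in CAKI-1, and COL4A4 differed by 1.52 ± 0.09 and 1.68 ± 0.09. Both pairs thus separated A704 from the other 8 libraries, in opposite directions. COL4A3 and COL4A4 passed the filter only through A704, so they could not have been called lower.

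Among single genes, PLAU and CD44 were lower in A704. PLAU, the urokinase plasminogen activator, had 0.65, 0.40, 0.74 and 0.45 FPKM in A704, against 217, 234, 399 and 199 in HK2 and 139, 158, 189 and 118 in CAKI-1, differences of -7.35 ± 0.11 and -6.59 ± 0.11. CD44, the hyaluronan receptor, had 0.24, 0.15, 0.21 and 0.15 FPKM in A704, against 104, 95.8, 117 and 101 in HK2 and 199.8, 167, 158 and 169.9 in CAKI-1, differences of -6.47 ± 0.08 and -7.20 ± 0.08. No A704 library reached 1 FPKM in either gene. Of 19 tested integrins, 6 were higher (31.6%, beside 7.61% of all genes tested) and 2 lower (10.5%, beside 5.43%) against both lines. The collagen-binding ITGA1 differed by 3.06 ± 0.10 and 2.46 ± 0.10, the laminin-binding ITGA6 by 2.86 ± 0.10 and 1.90 ± 0.10, and ITGA4, which binds fibronectin and VCAM1, by -2.79 ± 0.08 and -3.76 ± 0.08. EDIL3, a secreted integrin ligand, was higher, with 69.7, 77.1, 66.7 and 84.6 FPKM in A704, against 0.19 to 0.34 in HK2 and 0.57 to 0.96 in CAKI-1.

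**Figure D5:**
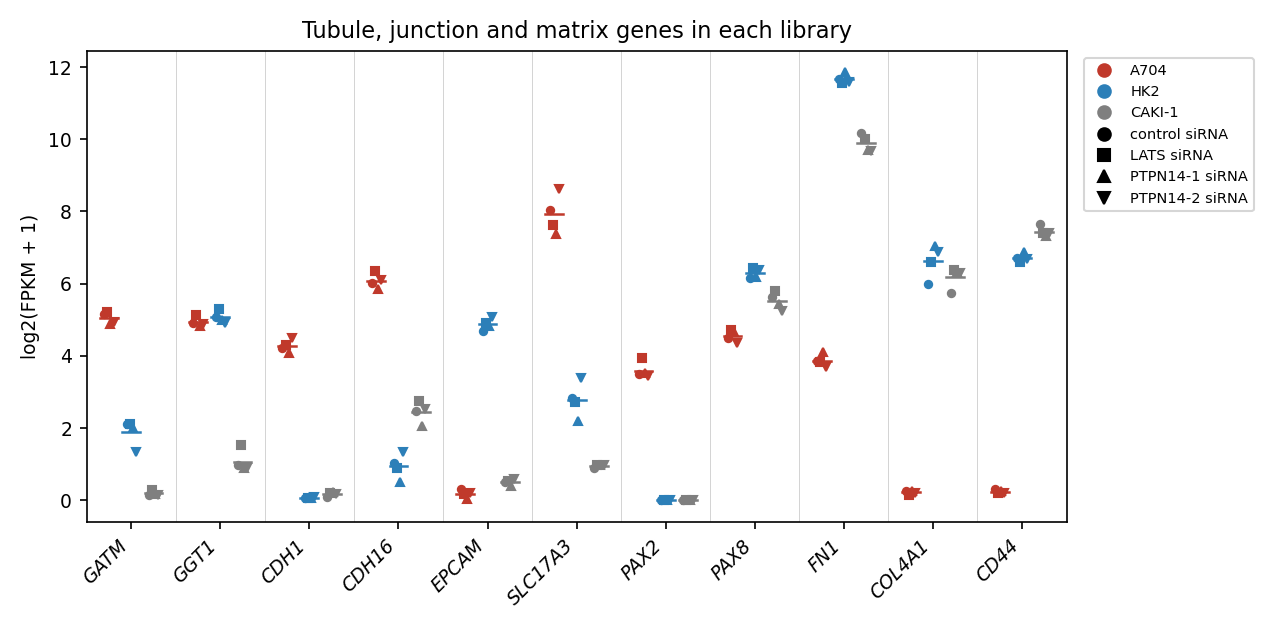
log2(FPKM + 1) of tubule genes, junction genes, PAX2 and PAX8, and matrix and adhesion genes in each library, by line (A704 red, HK2 blue, CAKI-1 grey) and siRNA (symbols), with the mean of 4 libraries as a bar. GATM, CDH1, CDH16, SLC17A3 and PAX2 lie highest in A704, FN1, COL4A1 and CD44 lowest, and GGT1 overlaps HK2.

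UCHL1 and S100A6 led the 15 lower genes that the naming rule gave. UCHL1, a ubiquitin hydrolase of neurons, had 1.27, 0.43, 0.72 and 0.70 FPKM in A704, against 455, 421, 421 and 418 in HK2 and 601, 698, 570.3 and 541 in CAKI-1, differences of -7.93 ± 0.11 and -8.42 ± 0.11. S100A6, a calcium-binding protein, had 1.92, 2.26, 1.3 and 1.43 FPKM in A704, against 559, 622, 563 and 554 in HK2 and 1825, 1734, 1829 and 1629 in CAKI-1, differences of -7.73 ± 0.08 and -9.34 ± 0.08. The translation factor EEF1A2 was at 0.18 to 0.47 FPKM in A704, against 93.2 to 197 in HK2 and 94.7 to 227 in CAKI-1. In HK2 and CAKI-1, EEF1A2 was lowest with PTPN14-1 siRNA, still far above A704. Also below 1 FPKM in every A704 library were ANXA3, an annexin, at 29.9 to 50.9 FPKM in HK2 and 19.7 to 37.95 in CAKI-1, and SCRN1, at 39.3 to 52.9 in HK2 and 49.3 to 65.5 in CAKI-1. TCEAL4, RPL39L and C8orf4 completed the naming rule's 15 lower genes together with CLDN11, GJA1 and the matrix and adhesion genes above. RPL39L, a paralogue of the ribosomal protein gene RPL39, was at 0 to 0.16 FPKM in A704, against 20.5 to 32.5 in HK2 and 24.5 to 27.4 in CAKI-1. Among the 15 higher genes not yet described were USH1C, a scaffold of microvilli (29.6 to 46.98 FPKM in A704, against 0.14 to 0.18 in HK2 and 0 to 0.04 in CAKI-1), ENPP3, an ectonucleotidase (31.1 to 41.1 in A704, against 0.06 to 0.21 in HK2 and 0 to 0.05 in CAKI-1), and XAF1, an interferon-induced partner of XIAP (21.1 to 47.2 in A704, against 0 to 0.03 in HK2 and 0.03 to 0.14 in CAKI-1).

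Several cell cycle and p53 genes were higher in A704. Of 44 tested genes of this list, 10 were higher against both lines (22.7%, beside 7.61%) and 1 lower (2.27%, beside 5.43%), with medians of 0.37 and 0.26. CDKN1A, the p21 inhibitor of cyclin-dependent kinases, had 92.3, 105, 135 and 118 FPKM in A704, against 22.3, 19.9, 28.6 and 23.5 in HK2 and 31.9, 36.7, 40.3 and 35.3 in CAKI-1, differences of 2.20 ± 0.07 and 1.60 ± 0.07. The DNA damage recognition gene DDB2 differed by 3.11 ± 0.08 and 2.37 ± 0.08, the ubiquitin ligase MDM2 by 1.78 ± 0.07 and 1.23 ± 0.07, and BBC3, which encodes the death activator PUMA, by 1.60 ± 0.09 and 1.65 ± 0.09. CCND1 (cyclin D1) was the lower gene, at 7.39, 7.84, 8.36 and 5.74 FPKM in A704, against 36.98, 33.5, 58.4 and 31.7 in HK2 and 44.9, 46.4, 56.4 and 50.7 in CAKI-1. CDKN2A was at 0.14 to 0.31 FPKM in A704, against 13.9 to 18.7 in HK2 and 0 to 0.04 in CAKI-1, and was called against HK2 only.

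Growth factor receptors and ligands moved in both directions, with 12 higher (28.6%, beside 7.61% of all genes tested) and 8 lower (19%, beside 5.43%) against both lines of 42 tested. IGFBP3, which binds insulin-like growth factors, had 1579.6, 1485, 1315 and 2144 FPKM in A704, against 16.6, 25.5, 14.1 and 43.9 in HK2 and 263, 326, 376 and 276 in CAKI-1, differences of 6.08 ± 0.25 and 2.38 ± 0.25. The ephrin receptor EPHA7 was at 17.3 to 27.6 FPKM in A704, against 0.28 to 0.42 in HK2 and 0.03 to 0.05 in CAKI-1. EPHA7 passed the filter only through A704, so it could not have been called lower, and the share higher includes it. EREG (epiregulin), a ligand of EGFR, had 0.31, 0.26, 0.29 and 0.22 FPKM in A704, against 169.7, 136, 119.6 and 192 in HK2 and 51.1, 15.5, 14.1 and 25.9 in CAKI-1, while the kidney-derived ligand EGF differed by 1.88 ± 0.10 and 1.40 ± 0.10. PDGFB differed by -2.98 ± 0.16 and -2.19 ± 0.16. MET, the hepatocyte growth factor receptor, was called higher against HK2 (1.55 ± 0.09) and overlapped CAKI-1 (-0.18 ± 0.09).

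Other lists had few or no genes called against both lines. Of 28 NRF2 and aldo-keto reductase genes, 1 was higher (3.57%, beside 7.61% of all genes tested) and 2 lower (7.14%, beside 5.43%) against both lines. Against HK2, 12 were higher and 2 lower (16.5 and 16.1% over all genes tested). Against CAKI-1, 2 were higher and 13 lower (12.3% each over all genes tested). In opposite directions 7 were called, as were 101 of all 12276 genes tested. The medians were 0.68 and -0.86. AKR1B10, an aldo-keto reductase, had 48.4, 69.6, 105 and 79.7 FPKM in A704, against 0.39, 0.73, 1.04 and 0.33 in HK2 and 249, 234, 215 and 200.4 in CAKI-1. NQO1, a quinone reductase, was at 103 to 141 FPKM in A704, against 59.1 to 83.8 in HK2 and 321 to 388 in CAKI-1, and AKR1C1 differed by 2.67 ± 0.14 and -3.88 ± 0.14. Metallothioneins, which bind zinc and copper and are so alike that reads can be shared, were all 7 lower than in HK2 (beside 16.1% of all genes tested). Their median was -2.98 from HK2 and 0.00 from CAKI-1. MT2A had 97.3, 129, 93.9 and 88.8 FPKM in A704, against 495, 515, 197 and 444 in HK2 and 71.7, 32.5, 28.8 and 29.7 in CAKI-1. MT1A was the 1 metallothionein lower against both lines (14.3%, beside 5.43% of all genes tested). It was listed at 0 in all A704 libraries, against 10.4 to 14.2 in HK2 and 2.05 to 3.83 in CAKI-1. Of 8 caveola genes 4 were higher than in HK2 (beside 16.5% of all genes tested). None was called against both lines (beside 7.61% higher and 5.43% lower).

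PTPN14 and LATS1 were below the control library of the same line with their siRNAs in all 3 lines. PTPN14 had 19.1, 20.1, 4.09 and 7.14 FPKM in A704, which put PTPN14-1 at 21.4% and PTPN14-2 at 37.3% of the A704 control. HK2 had 51.8, 43.9, 14.9 and 19.5 FPKM (28.7 and 37.5% of its control) and CAKI-1 had 18.5, 20.97, 4.66 and 5.78 (25.2 and 31.2%). Over all siRNAs A704 lay below HK2 in PTPN14 (-1.36 ± 0.09) and close to CAKI-1 (0.03 ± 0.09, adjusted p 0.813). LATS1 stood at 30.7% of control in A704 with LATS siRNA, against 27.9% in HK2 and 22.5% in CAKI-1. LATS2 stood at 110.0% in A704, against 98.2% in HK2 and 122.0% in CAKI-1, and the labels do not say which LATS gene was targeted.

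Of 24 tested Hippo core genes, 1 was higher and 1 lower in A704 against both lines (4.17% each, beside 7.61 and 5.43% of all genes tested). FAT4, an atypical cadherin upstream of the pathway, was at 11.2 to 14.2 FPKM in A704, against 1.78 to 2.94 in HK2 and 0.79 to 1.33 in CAKI-1. TEAD2, a DNA-binding partner of YAP1, was at 0 to 0.05 FPKM in A704, against 12.3 to 14.2 in HK2 and 6.54 to 8.66 in CAKI-1. YAP1 differed by 0.39 ± 0.07 and 0.79 ± 0.07, short of a call, and WWTR1 was lower than in HK2 (-1.16 ± 0.09) and overlapped CAKI-1 (0.12 ± 0.09). Of 26 targets of YAP1 and WWTR1, 2 were higher (7.69%, near the 7.61% over all genes tested) and 3 lower (11.5%, beside 5.43%) against both lines. The matricellular target CTGF had 4.28, 4.06, 5.94 and 4.02 FPKM in A704, against 16.4, 15.4, 20.9 and 19.7 in HK2 and 18.7, 20.1, 29.4 and 17.6 in CAKI-1, differences of -1.78 ± 0.09 and -2.0 ± 0.09. CYR61, its relative, was lower than in HK2 (-2.36 ± 0.10) and was not called against CAKI-1 (0.48 ± 0.10).

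Whether A704 answered the PTPN14 siRNAs differently was tested as the PTPN14 minus control difference in A704 less the mean of that difference in HK2 and CAKI-1. No gene was called by limma (0 of 12276, 0%), the smallest adjusted p was 0.9996, and 162 genes (1.32%) had an unadjusted p under 0.05. Fits without trend and robust moderation also gave 0, and a fit without the filter on low values gave 1, AC069063.1, at 0.77, 0.71, 0 and 0 FPKM in A704 and 0 in all other libraries (adjusted p 0.0228). The smallest unadjusted p was that of COL4A1, whose response was -0.02 in A704, against 0.96 in HK2 and 0.57 in CAKI-1, a difference of -0.79 ± 0.16. PTPN14 itself changed by -1.65 in A704, against -1.55 in HK2 and -1.66 in CAKI-1, with a difference of -0.04 ± 0.37. These fits have 3 residual degrees of freedom, all from the pairs of PTPN14 siRNAs, and a p that misses the threshold does not show that the lines answered alike.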

How the data were processed

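Values are FPKM per gene symbol, which the authors deposited as 1 table with 2 decimals; no header names the unit, which follows from the values. The submitters' processing notes name STAR 2.4.0g1 and GRCh38.p1, and per the labels' protocols the libraries are stranded. How genes were counted, with which strand setting and scaling, is not given in the sources used here, so reads of overlapping genes (COL4A1 with COL4A2, HOXD10 with HOXD11, KRT8 with KRT18, NDUFA4L2 with SHMT2) and of near-identical genes may be split. The table has 20979 entries and 19156 symbols, 695 of them on more than 1 line, of which the highest was used; 29 entries read as dates are not named. No column lacked a sample (0).

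Lists of 4 values follow sample titles; descriptions number the PTPN14 siRNAs the other way round. Entries above FPKM 1 in at least 3 libraries (12276) were fitted as log2(FPKM + 1) on line and siRNA reagent with limma 3.58.1 (trend, robust moderation with statmod 1.5.0, 6 residual degrees of freedom) in R 4.3.3, checked on simulated data. P-values were adjusted by Benjamini-Hochberg over all entries. Depth came from whole-read steps and is an estimate. Same-reagent libraries of different lines deviated together (correlations 0.237 to 0.585), and pairing comes from the reagent label. Members, lists and the naming rule were chosen with earlier results of these data known. Lists are described by counts and medians, without a test. A gene that passed the filter only through the A704 libraries could be called higher but not lower, so such members add to the share higher of their list.

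The naming rule took the 3 line markers, the siRNA targets with YAP1 and WWTR1, 15 genes higher and 15 lower in A704 with the largest smaller difference of both comparisons, no overlap and a mean FPKM of at least 5 in the highest line, up to 4 genes per list called against both lines, and markers near 0. It left out unnamed loci and symbols on several lines; some genes it names are not reported here. Chosen after their values were seen were ADM, AKR1B10, AKR1C1, ALDOA, ANPEP, B2M, BAP1, CA12, CDH2, CDKN2A, COL4A3, COL4A4, CUBN, CXCL10, CYR61, DPP4, EPAS1, EPCAM, HIF1A, HLA-B, IFIT1, IFNB1, IFNL1, IRAK2, IRF1, IRF7, ISG15, KRT19, MDM2, MET, MT2A, NQO1, PAX8, PBRM1, PFKFB3, PSMB8, SETD2, SLC2A1, SLC7A11, TAP1, VEGFA, VIM and ZEB1, the genes near the threshold, COL4A1 in the response and AC069063.1. Coordinates of genes are from GENCODE v29 on GRCh38, with a position for 18356 symbols.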

Additional observations from a re-analysis of the deposited data

Results flagged for a closer look

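Among the genes named, 28 of 381 groups of 4 libraries held 1 library whose gap to its nearest neighbour, as a share of the group's range, passed Dixon's critical value; chance gives this in about 1 in 20 groups. In A704, 10 such libraries were found. LATS1 was at 1.49 FPKM in A704 with LATS siRNA, its target, against 4.85 to 5.07 in the other A704 libraries. With PTPN14-1 siRNA, A704 had 171 FPKM of CCL2 (75.4 to 77.3 in the other A704 libraries), 5.94 of CTGF (4.02 to 4.28), 11.6 of PTPRO (6.65 to 7.41), 19.7 of SAA1 (1.27 to 3.38), 39.6 of SLC7A11 (18.8 to 21.9) and 144 of VEGFA (240.3 to 259.8). With LATS siRNA, A704 had 14.3 FPKM of PAX2 (9.81 to 10.5) and 11.6 of HOXC4 (7.86 to 8.27), and with PTPN14-2 siRNA 3.33 of TGFB2 (5.18 to 5.40). In SAA1 the A704 library with PTPN14-1 siRNA reached the range of HK2.

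In HK2, the library with PTPN14-1 siRNA stood apart for LATS2 at 12.6 FPKM (8.02 to 8.27 in the other HK2 libraries), EEF1A2 at 93.2 (180.1 to 197), SCRN1 at 52.9 (39.3 to 41.2), ITGA1 at 3.42 (1.54 to 1.73), SFN at 5.67 (7.63 to 7.80) and ADM at 4.60 (3.01 to 3.11). That with LATS siRNA stood apart for IFITM1 at 3.83 FPKM (1.74 to 1.96), S100A6 at 622 (554 to 563) and ENO2 at 45.5 (33.3 to 34.9). That with PTPN14-2 siRNA stood apart for FAT4 at 2.94 FPKM (1.78 to 1.93) and ISG15 at 6.67 (9.65 to 10.1), and the control library for UCHL1 at 455 (418 to 421). In CAKI-1, the library with LATS siRNA stood apart for GGT1 at 1.87 FPKM (0.85 to 0.97) and AKR1B1 at 2649.9 (1804 to 1913), and the control library for COL4A1 at 52.4 (77.2 to 81.8) and MT2A at 71.7 (28.8 to 32.5). That with PTPN14-2 siRNA stood apart for BBC3 at 0.79 FPKM (1.36 to 1.43) and SLC2A1 at 8.10 (9.67 to 9.99). In each of these HK2 and CAKI-1 genes except LATS2, all 4 A704 libraries lay on 1 side of the whole group.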

How the results depend on the processing

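The counts of genes called against HK2, against CAKI-1 and against both lines were unchanged at 4002, 3019 and 1600 without the siRNA term, that is with no replicate block, and the pairing by reagent changed no call among the named genes. With 1 library per reagent in each line, that term cannot change a line difference, and size set the calls, so the equal counts do not check the pairing. The counts moved with the size asked of a difference: at least 2 gave 1166, 785 and 408, and any size with an adjusted p under 0.05 gave 10382, 9954 and 6440. Leaving out 1 library at a time gave 3935 to 4010 against HK2, 2982 to 3030 against CAKI-1 and 1578 to 1610 against both. The difference in PTPN14 response gave 0 calls without any 1 of the PTPN14 siRNA libraries (no fit leaves out another library), and 1 without a filter on low values. With a pseudocount of 0.1, 2272 genes were called against both lines, 52.4% of them higher in A704, beside 58.4% as reported; limma's treat test against a difference of 1 gave 1075. Upper quartile and quantile scaling moved the median of all genes by under 0.1. Over 158 named genes and 316 comparisons none reversed in 22 settings; 90 calls were lost at a difference of at least 2, 20 under treat and 7 in fits without 1 library, which concern SAA1, HOXD11 and TGFB2. Among lists, interferon genes higher against both lines numbered 36 to 37 and hypoxia genes 20 to 22 when 1 library was left out. Some smaller counts moved more for their size. Kidney lineage factors lower against both lines went from 2 to between 0 and 3, and HOX genes lower from 4 to between 2 and 4. Amino acid genes higher went from 4 to between 2 and 4, and targets of YAP1 and WWTR1 higher from 2 to between 1 and 3. Ribosomal protein genes lower went from 6 to between 6 and 9. Depth limits low genes: at FPKM below 1 the pseudocount sets much of the difference.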

Other observations

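Of 33 tested renal tumour markers, 11 were higher in A704 against both lines (7.61% of all genes tested) and 4 lower (5.43%) (CD44, VHL, PBRM1 and SETD2). NDUFA4L2, among the higher markers, passed the filter only through A704, so it could not have been called lower. Cytosolic ribosomal protein genes were lower in part, with 6 of 46 tested called lower against both lines (13%, beside 5.43%) and none higher, and medians of -0.63 and -0.56. RPL11, which also binds MDM2, had 474, 480.3, 493 and 478 FPKM in A704, against 1337, 1662, 1612 and 1410.1 in HK2 and 1253, 1222, 1401 and 1158 in CAKI-1, and RPS6, a subunit of the small ribosome, differed by -1.34 ± 0.07 and -1.53 ± 0.07. Processed copies of ribosomal protein genes can share their reads. Of 33 tested HOX genes, which set body position, 1 was higher (3.03%, beside 7.61%) and 4 lower (12.1%, beside 5.43%) against both lines. HOXC4 was at 7.86 to 11.6 FPKM in A704, against 0.60 to 0.73 in HK2 and 1.12 to 2.24 in CAKI-1, and HOXD10 at 0.03 to 0.08 FPKM in A704, against 2.99 to 4.27 in HK2 and 1.01 to 2.31 in CAKI-1. HOXD11, with a difference of -1.04 ± 0.08 from CAKI-1, lost that call in 4 of the fits without 1 library.

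Of 33 TGF-beta and Wnt genes, 4 were higher (12.1%, beside 7.61%) and 3 lower (9.09%, beside 5.43%) in A704 against both lines. The Wnt receptor FZD4 was at 15.8 to 21.6 FPKM in A704, against 0.57 to 0.95 in HK2 and 0.19 to 0.30 in CAKI-1, and LGR4, a receptor of R-spondins, differed by 2.05 ± 0.07 and 1.48 ± 0.07. FZD4 passed the filter only through A704, so it could not have been called lower, and the share higher includes it. TGFB2 was lower, with differences of -2.97 ± 0.12 and -1.12 ± 0.12. Of 13 tested markers of the loop, distal tubule and collecting duct, 3 were higher against both lines (23.1%, beside 7.61%) and 1 lower (7.69%, beside 5.43%). AQP4, among these higher genes, passed the filter only through A704, so it could not have been called lower. Of 12 tested markers of podocytes and parietal epithelium, 5 were higher (41.7%, beside 7.61%) and none lower. The higher podocyte genes include PTPRO, a podocyte phosphatase, at 6.65 to 11.6 FPKM in A704, against 0 to 0.03 in HK2 and 1.07 to 1.87 in CAKI-1, while NPHS1 was near 0. SCNN1A, the sodium channel subunit of the collecting duct, was at 0.10 to 0.23 FPKM in A704, against 31.8 to 43.9 in HK2 and 1.7 to 2.78 in CAKI-1.

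Markers of other cell types were mostly absent. Of 24 endothelial and leukocyte markers 2 passed the filter, and both were higher in A704 against both lines (beside 7.61% of all genes tested). ITGAM passed the filter only through A704, so it could not have been called lower. CD68, a lysosomal protein of macrophages, had 134, 198, 178 and 145 FPKM in A704, against 38.9, 41, 31.5 and 43.4 in HK2 and 25.2, 20.7, 17.7 and 18.4 in CAKI-1, and ITGAM, on 16p, was at 1.42 to 2.02 FPKM in A704, against 0 to 0.11 in HK2 and 0.11 to 0.27 in CAKI-1. The leukocyte marker PTPRC was at most 0.01 FPKM in A704. Of 11 tested fibroblast, smooth muscle and neural markers 1 (ENO2) was higher against both lines (9.09%, beside 7.61%) and 2 (TUBB3 and SYT1) were lower (18.2%, beside 5.43%). Of 6 urothelial and squamous markers 1 (SFN) was lower (16.7%, beside 5.43%). Of 2 tested cancer-testis antigens none was called against both lines.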
